A study of Mus musculus with 12 samples.

Results

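The metallothioneins Mt1 and Mt2 were followed in the liver of fed mice and of mice fasted for 12, 24 or 72 hours, on oligonucleotide arrays with 3 arrays per group. These 2 of the 8931 genes named on the arrays had 1 probe each among 20280 probes kept, and were chosen by gene because earlier results of these data had shown them far above their fed level, so that their differences from fed are given as a description without a test. No other probe carried the name of a metallothionein, and Mt3 and Mt4 were therefore not analysed here. The Mt1 probe had the same name on all arrays, whereas the Mt2 probe was named Mt2 in the annotation of 3 arrays and LOC234574 in the earlier annotation of the other 9.

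All animals were male FVB mice, 6 weeks old, and the labels name no genetic change and no drug. The fed group kept its chow, and the other groups lost it for 12, 24 or 72 hours. Mice stayed in metabolic cages, were killed in the morning, and an infrared lamp warmed them from 24 hours onwards, so that warming and the length of the fast cannot be told apart at 72 hours. Each array carried Cy3-labelled cDNA from a pool of 2 livers beside a Cy5-labelled reference made from the same 6 livers that supplied the fed group, and no array had the dyes exchanged. The spread between the 3 arrays of a group is therefore a spread between pools and not between mice.

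Metallothioneins are small cysteine-rich proteins that bind zinc and copper in the cytosol and also take up cadmium. In rodent liver they serve as a store of zinc, and transcription of Mt1 and Mt2 is known to respond to zinc through metal response elements, to glucocorticoids and to the acute-phase cytokines. Mt3 is best known from brain and Mt4 from squamous epithelia.

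The 4 genes lie in a row on mouse chromosome 8, within 43124 bases from the first base of Mt4 to the last base of Mt1 in RefSeq's GRCm38.p6 annotation. Mt2 spans chr8:94172618-94173567 and Mt1 chr8:94178883-94180327, both on the forward strand, with 5315 bases between them. The sequences before the annotated starts of both measured genes are shown because both genes lay far above fed on the same arrays, as given below. They are the 250 bases before the start, from chr8:94172368-94172617 for Mt2 and chr8:94178839-94179088 for Mt1, forward strand, taken from RefSeq, and the capitals mark letters of the core metal response element on either strand (TGCACNC or TGCGCNC). The Mt1 stretch lies partly inside the annotated span of that gene, whose first base comes before this start.
Mt2: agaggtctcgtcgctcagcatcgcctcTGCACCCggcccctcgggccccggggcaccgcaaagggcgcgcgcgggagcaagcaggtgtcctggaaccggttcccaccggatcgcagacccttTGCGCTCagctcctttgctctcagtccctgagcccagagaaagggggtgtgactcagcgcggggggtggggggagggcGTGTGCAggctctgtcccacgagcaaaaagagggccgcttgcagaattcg
Mt1: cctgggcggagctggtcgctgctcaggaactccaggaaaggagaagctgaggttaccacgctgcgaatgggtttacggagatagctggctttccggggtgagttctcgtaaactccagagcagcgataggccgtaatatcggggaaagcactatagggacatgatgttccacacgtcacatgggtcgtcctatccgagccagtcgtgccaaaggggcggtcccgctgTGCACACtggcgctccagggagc

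The Mt2 stretch held 3 matches, TGCACCC at bases 223 to 217 before the start, TGCGCTC at bases 128 to 122 and, on the reverse strand, TGCACAC at bases 50 to 44. The Mt1 stretch held 1 match, TGCACAC at bases 23 to 17. With the first 50 bases after the start added, the count was 4 for Mt2 and 3 for Mt1, since TGCGCAC lay on the reverse strand at bases 5 to 11 of Mt2, and TGCACTC and TGCGCTC lay at bases 3 to 9 and 21 to 27 of Mt1. Of 32851 mouse promoters of the same 300 bases, 25.7% held at least 1 such match, 1.97% at least 3 and 0.517% at least 4. An antioxidant response element core (TGACNNNGC), which overlapped no metal response element, was matched at bases 79 to 71 before the start of Mt2 and nowhere in the window of Mt1, against 12.4% of all promoters with at least 1 match. In the unmeasured neighbours, 1 metal response element match each was found in the windows of Mt3 and Mt4. These matches describe letters within this window and not binding, and bases beyond it were not searched. The Mt1 window was placed at a start inside the annotated gene and the Mt2 window at the first base of its gene. The matches of Mt1 and Mt2 are therefore not from like positions, and a match missing here may lie elsewhere.

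The arrays differed in brightness. On 10 arrays the sample signal of the median probe was 5.34 to 10.6 times its local background. On replicate 2 of 12 hours it was 4.72 times and on replicate 3 of 24 hours 3.5 times, and on these 2 no sample spot was saturated, against 21 to 39 spots on the others. The scanner software had marked 24.7% of the probes of fed replicate 2 and 14.1% of those of fed replicate 3 as outliers, against 6.29% or less on every other array. Arrays had been quantified on 3 days. The first held fed replicates 2 and 3 and the 72-hour arrays, the second replicates 1 and 3 of 12 hours and 1 and 2 of 24 hours, and the third fed replicate 1 with both dim arrays. Of the hepatocyte markers listed, only Apoa1 and Ttr had a probe, and both were well above background on all 12 arrays. Their log2 differences from fed at 12, 24 and 72 hours were 0.37, -0.17 and 0.15 for Apoa1 and -0.56, -0.77 and -1.35 for Ttr. The mean normalized sample signal in fed liver was 15.8 for Apoa1 and 15.7 for Ttr on the log2 scale. Saturated spots of Mt1 and Mt2, given below, were at 15.3 to 15.8. Saturation of the Apoa1 and Ttr spots was not examined, so that these differences are uncertain.

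Mt1 and Mt2 both stood several-fold above the fed level at every time of fasting. The mean level of Mt1 relative to fed was 8.09-, 5.53- and 11.4-fold at 12, 24 and 72 hours, and that of Mt2 was 12.2-, 8.98- and 13.9-fold. These folds come from log2 ratios of sample over reference after quantile normalization. After this normalization, both genes had the highest mean at 72 hours, where 2 of 3 sample spots were saturated for each gene, and the lowest fasted mean at 24 hours. For Mt2 the order turned with the scaling, since the log2 differences from fed at 12, 24 and 72 hours were 3.74, 3.51 and 3.30 with loess and 3.76, 3.53 and 3.28 with the scanner software's ratio. In these whole-liver samples, more RNA per cell and a larger share of cells of 1 type cannot be told apart.

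The Mt1 log2 ratio was -0.24, -0.09 and -0.25 on fed replicates 1, 2 and 3. At 12 hours it was 2.79 on replicate 2 and 2.85 on replicate 3, while replicate 1 was marked as an outlier and left out, with 2.88 if kept. At 24 hours it was 2.78, 1.90 and 2.15, and at 72 hours 3.42, 3.37 and 3.18. The fed arrays lay close to 0 and below all fasted arrays. The 72-hour arrays were above all others, and the 24-hour arrays spread widest, with replicate 1 almost level with the 12-hour arrays. The group means were -0.19 ± 0.09 (SD, n = 3) in fed liver, 2.82 ± 0.04 (SD, n = 2) at 12 hours, 2.27 ± 0.45 (SD, n = 3) at 24 hours and 3.32 ± 0.13 (SD, n = 3) at 72 hours.

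The Mt2 log2 ratio was 0.47, -0.45 and -0.09 on the fed arrays. It was 4.05, 3.12 and 3.59 at 12 hours, 3.82, 3.20 and 2.41 at 24 hours, and 4.29, 4.07 and 2.98 at 72 hours. All 9 fasted arrays were above the 3 fed arrays, and the 3 fasted groups overlapped. The 72-hour group was split, since replicate 3 lay below every 12-hour array while the other 2 were the highest of all. The means were -0.02 ± 0.46, 3.59 ± 0.47, 3.15 ± 0.71 and 3.78 ± 0.70 (SD, n = 3 each) in the fed, 12-, 24- and 72-hour groups. The pooled SD within groups was 0.60 for Mt2 and 0.26 for Mt1 on this scale, and 0.54 and 0.50 in the scanner software's ratio.

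**Figure D1:**
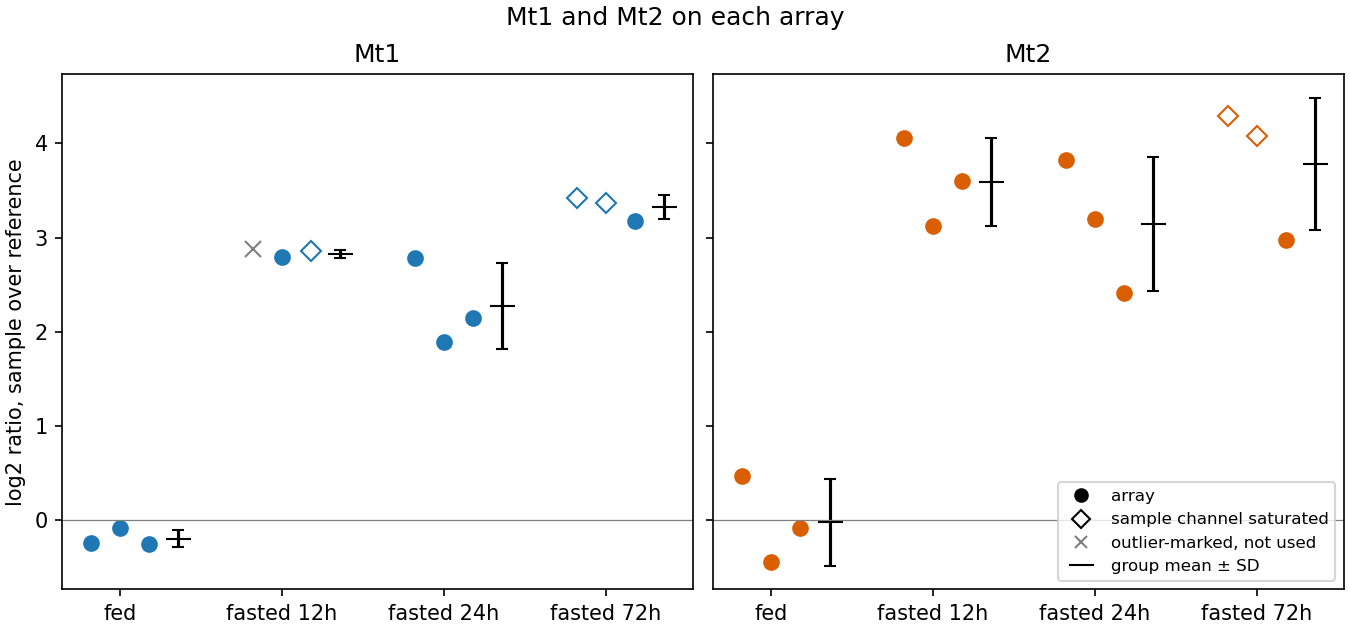
Log2 ratio of sample over reference (y axis) for Mt1 and Mt2 on each of the 12 arrays, by group (x axis), with replicates 1 to 3 from left to right and the group mean ± SD beside them. Open diamonds are saturated sample spots and the cross is the outlier-marked spot that was not used. All fasted arrays lie between 1.90 and 4.29, the fed arrays between -0.45 and 0.47.

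On the array, the difference of Mt2 minus Mt1 in log2 ratio, which sets each gene against its own reference level, averaged 0.17 ± 0.54 (SD, n = 3) in fed liver, 0.54 ± 0.29 (SD, n = 2) at 12 hours, 0.87 ± 0.54 (SD, n = 3) at 24 hours and 0.46 ± 0.58 (SD, n = 3) at 72 hours. The groups overlapped in this difference, which was not tested. At 72 hours it was 0.87 and 0.70 on replicates 1 and 2, where the sample spots of both genes were saturated, and -0.20 on replicate 3. On replicate 3 of 12 hours, with 0.74, the Mt1 spot was saturated. On these saturated arrays the sample channel could not separate the genes above its limit.

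The scanner's limit was reached by some of the fasted spots. For Mt1, the sample channel was saturated on replicate 3 of 12 hours and on replicates 1 and 2 of 72 hours. For Mt2, it was saturated on replicates 1 and 2 of 72 hours. On each of these 5 spots all of the 57 to 60 pixels were saturated, with median signals of 65131 to 65138 over background, so that the true sample signal there was at or above the value used. Of the 3 arrays at 72 hours, 1 measured each gene below the limit, namely replicate 3, where Mt1 was 9.06-fold and Mt2 7.88-fold above the reference. In the scanner software's own ratio, that array was the highest of the 72-hour arrays for Mt1, with log2 ratios of 2.42, 2.85 and 3.42 on replicates 1, 2 and 3.

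The unnormalized signals of the spots are not scaled between arrays or channels. On fed replicates 1, 2 and 3 the Mt1 sample signal over background was 4778, 5166 and 6558 beside 4463.5, 5286 and 5387 in the reference channel. At 24 hours, replicates 1 and 2, from a day without a fed array, gave 46940 and 46581.5 beside 3256 and 4937. The sample channel was thus several times brighter than on the fed arrays, while the reference channel was not. For Mt2, the sample signal was 2046, 1865.5 and 3510.5 on the fed arrays and 20479.5 and 19871 on the same 24-hour arrays, beside 911 and 983 in the reference channel.

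Both dim arrays were unlike the rest. On replicate 2 of 12 hours the unnormalized Mt1 signal was 4484 in the sample channel and 4813 in the reference channel, a ratio of 0.932, and on replicate 3 of 24 hours it was 7859 and 5834.5, a ratio of 1.35. For Mt2 the ratios there were 1.67 and 2.28, against 19.2 to 24 on the other arrays of 12 and 24 hours. The medians of the ratio over all probes were 1.03 and 0.836 on these arrays, while they were 1.35 to 2.56 on the other 10. Relative to its array median, Mt1 was at 0.903 and 1.61 on the dim arrays, above the 0.546 to 0.724 of the fed arrays but far below the 3.68 to 6.47 of the other fasted arrays. Mt2 was at 1.62 and 2.73, against 0.567 to 0.882 on fed arrays and 5.94 to 10.5 on the other fasted arrays. The Mt1 log2 ratios on these arrays thus depended on the scaling. They were 2.79 and 2.15 after quantile normalization and 2.45 and 1.89 in the scanner software's ratio. Unnormalized and relative to the array median, they were -0.15 and 0.69. For Mt2 the scanner software's ratio gave 3.21 and 2.73, and the unnormalized one 0.69 and 1.45. The cause of these gaps was not tested.

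**Figure D2:**
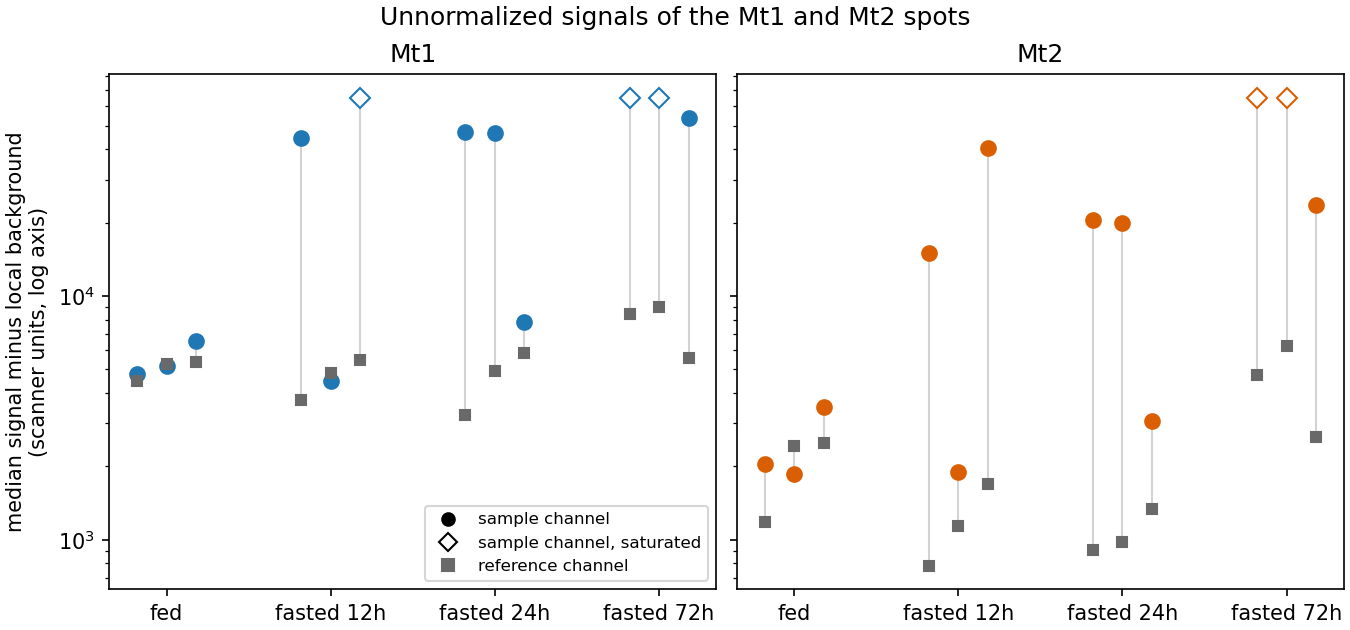
Median signal minus local background (y axis, scanner units, log axis) of the Mt1 and Mt2 spots in the sample and the reference channel of each array, by group (x axis), with replicates 1 to 3 from left to right. Open diamonds mark saturation. Replicate 2 of 12 hours and replicate 3 of 24 hours, at 4484 and 7859 for Mt1, lie near the fed arrays.

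The reference channel held the same RNA on every array, yet varied more for these 2 probes than for most. Over the 12 arrays its SD on the normalized log2 scale was 0.62 for Mt1 and 0.56 for Mt2, against a median of 0.30 over all probes tested. On the arrays of the first quantification day, the unnormalized Mt2 reference signal was 4762 and 6224.5 on the 2 arrays with a saturated sample spot, and 2435, 2489.5 and 2633 on the other 3. The Mt1 reference signal was likewise 8424 and 8998 on those 2 arrays, against 5286 to 5543.5. On the second day, replicate 3 of 12 hours had the highest reference signals, 5442.5 against 3256 to 4937 for Mt1, which was saturated there, and 1690 against 782.5 to 983 for Mt2, which was not. The part of the sample signal in these reference signals was not tested.

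**Figure D3:**
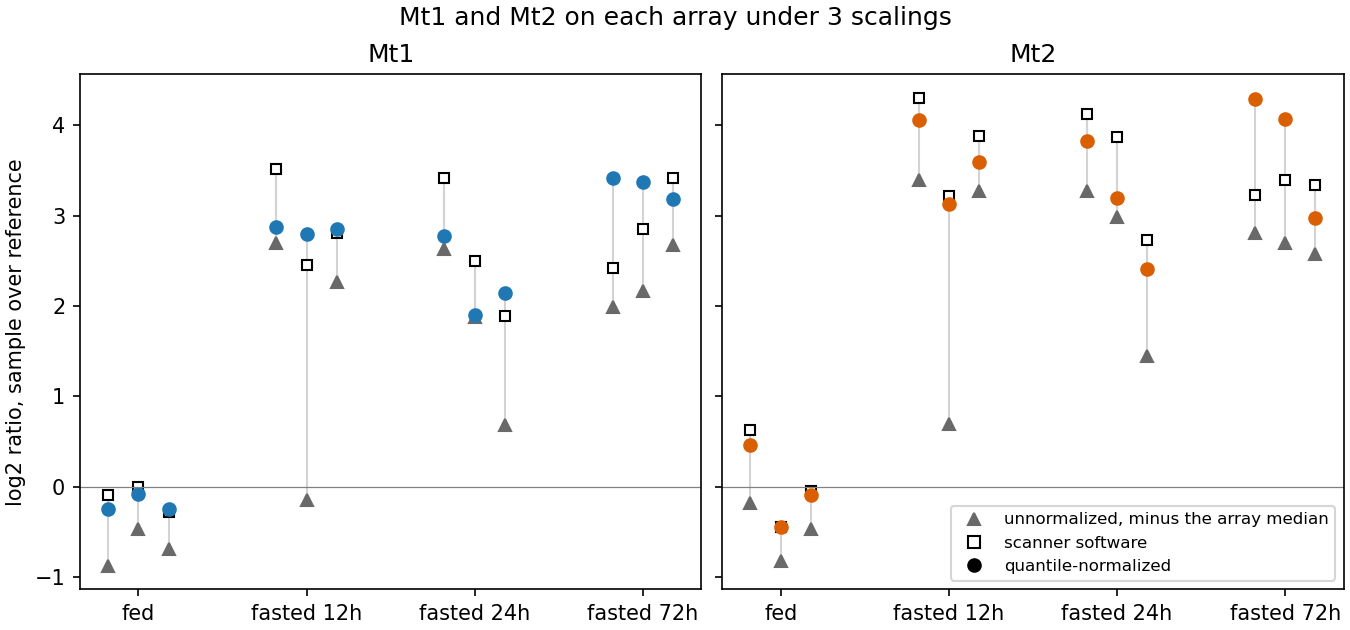
Log2 ratio of sample over reference (y axis) for Mt1 and Mt2 on each array (x axis, by group) under 3 scalings, unnormalized minus the array's median over all probes (triangles), the scanner software's ratio (squares) and the quantile-normalized ratio (circles). For Mt1 on replicate 2 of 12 hours they run from -0.15 to 2.79, and at 72 hours Mt1 is higher on replicates 1 and 2 than on replicate 3 only in the quantile-normalized ratio.

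Within a quantification day, the genes stayed above fed. On the first day, the 72-hour arrays exceeded fed replicates 2 and 3 by 11.2-fold for Mt1 and 16.5-fold for Mt2 (3 arrays against 2). On the third day, which had 1 array per group and whose fasted arrays are both dim ones, replicate 2 of 12 hours exceeded fed replicate 1 by 8.21-fold for Mt1 and 6.30-fold for Mt2, and replicate 3 of 24 hours exceeded it by 5.25- and 3.85-fold. Unnormalized and relative to the array medians, the log2 ratios of that day were -0.87 on fed replicate 1, -0.15 at 12 and 0.69 at 24 hours for Mt1, and -0.18, 0.69 and 1.45 for Mt2, so that the differences there were smaller. Blocking on the day in limma put Mt1 at 8.004-, 5.38- and 11.2-fold and Mt2 at 5.75-, 4.22- and 16.5-fold of fed after 12, 24 and 72 hours. The Mt2 values at 12 and 24 hours were thus smaller than without the block, and they are tied to fed through the third day alone, with fed replicate 1, the highest fed array for Mt2, and both dim arrays, each the lowest of its group for Mt2.

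A fold moved by more than 1.5 times under 3 further settings. With the sample channel alone, Mt1 was at 12.5-fold at 12 hours and 10.1-fold at 24 hours. With array weights, Mt2 was at 16.4-fold at 24 hours. With saturated spots set to missing, a setting chosen after seeing the data, Mt2 was at 7.996-fold at 72 hours, from the 1 array left.

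The differences between the times of fasting were tested with limma over all probes, since they had not served to choose the genes. A probe passed when its adjusted p was under 0.05 and it differed by 1.4-fold or more. Of the 2 genes, 0 passed in any of the 3 steps, where 0 of 20116 probes (0%) passed from 12 to 24 hours, 0 of 20087 (0%) from 24 to 72 hours and 0 of 20087 (0%) from 12 to 72 hours. At an unadjusted p under 0.05, 0.945%, 3.42% and 4.88% of probes passed in these steps.

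Mt1 was lower at 24 than at 12 hours by 0.55 ± 0.24 (SE) on the log2 scale. In limma its unadjusted p was 0.0464 and the adjusted p was 0.996. The groups did not overlap, by a margin of 2.79 against 2.78, although the left-out spot of 12 hours was higher still. The step was -0.12 with loess and -0.03 with the scanner software's ratio. The log2 change was -0.52 among arrays of the second day and -0.65 among those of the third day. From 24 to 72 hours, Mt1 was higher by 1.05 ± 0.22 (SE), a fold of 2.07 with a 95% interval of 1.48 to 2.89, with all 3 arrays of 72 hours above all 3 of 24 hours. Its limma p was 0.000699 and the adjusted p was 1. The adjusted p of this step fell to 0.0251 with array weights, at a log2 change of 0.67, was 0.0555 without both dim arrays, and ranged up to 1 over the settings tried. With the sample channel alone, loess or the scanner software's ratio, the step was 0.25, 0.17 or 0.30. No quantification day held both times. Between 12 and 72 hours Mt1 was higher by 0.50 ± 0.24 (SE), with limma's adjusted p = 0.729, and with the sample channel alone the change turned to -0.06.

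For Mt2, each 95% interval of the steps held 0. The log2 change from 12 to 24 hours was -0.45 (-1.40 to 0.51), with limma's adjusted p = 0.996, and -0.31 and -0.71 within the second and the third day. From 24 to 72 hours it was 0.63 (-0.32 to 1.59), with an adjusted p = 1, and from 12 to 72 hours 0.19 (-0.77 to 1.15), with an adjusted p = 0.872. These 2 steps depended on the setting. Blocking on the day they were 1.97 and 1.52, or 3.91- and 2.87-fold, with limma's adjusted p = 0.0733 and 0.117, and with the sample channel alone 0.99 and 0.90. With loess they turned to -0.21 and -0.44, with the scanner software's ratio to -0.25 and -0.48, and without saturated spots to -0.17 and -0.61. The intervals leave room for a 2-fold change in at least 1 direction between any of these times.

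**Figure D4:**
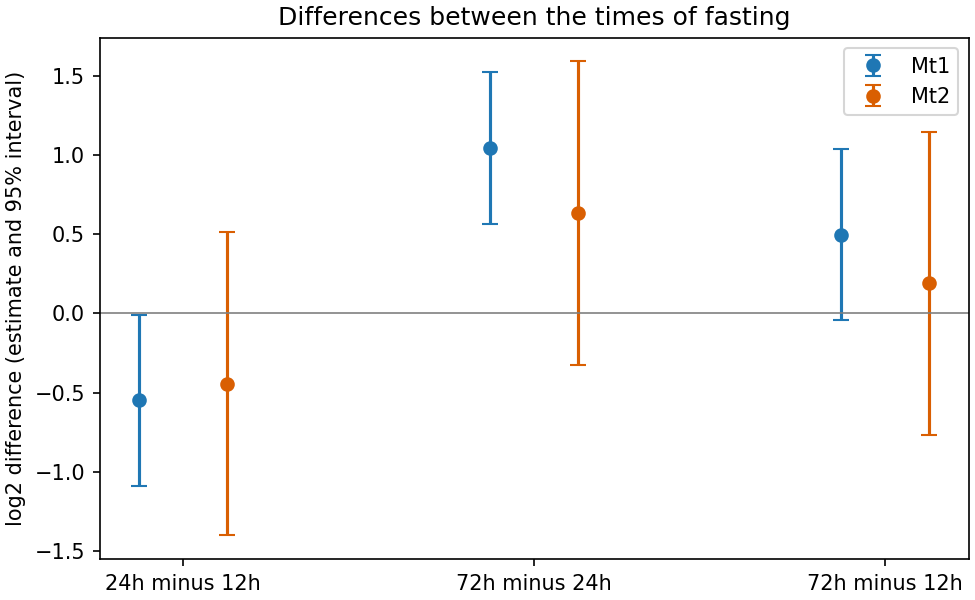
Log2 difference between times of fasting (y axis) for Mt1 and Mt2, as limma's estimate (points) with its 95% interval (bars), for the 3 steps on the x axis. The interval of Mt1 from 24 to 72 hours runs from 0.57 to 1.53, and the 3 intervals of Mt2 all span 0.

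The genes whose log2 ratio ran most like that of Mt1 across arrays were Mt2 (Pearson's r = 0.96), Larp1 (0.92), Ankhd1 (0.90), Gata6 (0.88) and Apoa4 (0.88), over 11 arrays and out of 6273 named probes that varied enough to be compared. For Mt2 they were Mt1 (0.96, n = 11), Ankhd1 (0.94), Apoa4 (0.92), Gata6 (0.89) and Larp1 (0.89), over 12 arrays except for Mt1 and out of 6735 probes. These correlations share the 3 fed arrays, the reference and the normalization, and mostly set fed against fasted arrays. Apoa4, an apolipoprotein of intestine and liver, was 2.82, 2.90 and 3.60 above fed on the log2 scale at 12, 24 and 72 hours, and the probe named Ankhd1, from the earlier annotation only, 2.81, 2.88 and 3.74. The other 2 moved less, with 0.70, 0.63 and 0.82 for Larp1, likewise named by the earlier annotation, and 0.79, 0.91 and 1.06 for Gata6, a transcription factor.

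Other genes of metal and redox handling and of the stress-hormone response were taken from 6 lists of 137 genes in all. Of these, 79 genes had a probe, and 100 of their 102 probes were tested. With limma, 0 of 100 list probes passed against fed at 12, 24 or 72 hours, where 0.00497%, 0.00497% and 0.00996% of all probes passed, and 5, 4 and 8 did so at an unadjusted p under 0.05, where 3.92%, 3.04% and 1.55% of all probes did. Their median log2 difference from fed was -0.06, 0.01 and 0.06, against -0.01, 0.00 and -0.01 over all probes. The 3 comparisons share the fed arrays. In the 3 steps, 0 list probes passed. From 12 to 24, 24 to 72 and 12 to 72 hours, 2, 5 and 8 had an unadjusted p under 0.05. Over all probes these shares were 0.945%, 3.42% and 4.88%. With array weights, 15, 20 and 19 list probes passed at 12, 24 and 72 hours, where 9.53%, 10.5% and 4.11% of all probes did. Blocking on the quantification day, 26, 9 and 0 passed, where 22.4%, 11.5% and 0.0199% of all probes did. Without both dim arrays, 6, 15 and 5 passed, where 2.6%, 8.81% and 0.837% of all probes did.

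The zinc list held no probe that stood near the metallothioneins. Its 17 tested probes, for 12 of 25 genes, lay between -0.57 and 0.49 at all times against fed, with medians of -0.01, 0.02 and -0.04. Slc30a1 and Slc39a14 were not among these 12 genes, and genes without a probe were not measured. The importer Slc39a4 was at -0.37, -0.11 and -0.45 at 12, 24 and 72 hours, and the exporter Slc30a3 at -0.35, -0.30 and -0.18. Slc39a4 had an SD of 1.17 between the 12-hour arrays. Of the importers Slc39a10 and Slc39a9, the first was at 0.06, -0.36 and -0.50 on its brightest probe, with 3 further probes between -0.18 and 0.22, and the second at -0.36, -0.22 and -0.10. Mtf1, which encodes the zinc-sensing factor that binds metal response elements and is named here for that role outside the selection rule, had 2 probes with log2 differences of -0.14, 0.31 and -0.06 and of 0.27, -0.57 and -0.11.

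Copper and iron genes gave a similar picture. The 9 copper probes had medians of -0.09, -0.11 and 0.00, with Atp7b, the copper exporter of hepatocytes, at -0.38, -0.08 and -0.08, Atp7a at -0.10, -0.24 and -0.09, and Sod1, the copper- and zinc-binding superoxide dismutase, at 0.26, -0.18 and 0.24. Commd1, which acts in copper excretion, was at -0.97, -0.34 and -0.28, with an SD of 1.45 between the 12-hour arrays. The 22 iron probes had medians of -0.07, 0.02 and 0.10. Trf, which encodes transferrin, was at -0.12, -0.27 and -1.10 on its brightest probe, with limma's adjusted p = 0.784 at 72 hours, and at 0.17, 0.39 and 0.30 on its other probe. The brightest Trf probe had a normalized fed signal of 15.8, in the range of saturated spots, and its saturation was not examined. Aco1, the cytosolic aconitase that doubles as an iron-regulatory protein, was at -1.03, -0.52 and 0.43 on its brightest probe, with 2 further probes between -0.50 and 0.07. The brightest Aco1 probe had an SD of 1.66 between the 12-hour arrays. The 2 probes of Hmox2, a haem oxygenase, were at -0.14, -0.45 and -0.34 and at -0.15, -0.08 and 0.94.

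Among 27 probes for glutathione and thiol redox, the medians were -0.11, -0.12 and -0.09. Gpx1, the selenium-dependent glutathione peroxidase, was lower than fed by about the same amount at each time, at -1.10, -1.19 and -1.09, with adjusted p-values of 0.956, 1 and 1 in limma. Its normalized fed signal of 15.1 was just below the range of the saturated metallothionein spots, and its saturation was not examined. Prdx4, a peroxiredoxin, was at -0.59, -0.55 and -0.95, Gclc, which catalyses the first step of glutathione synthesis, at -0.42, -0.65 and -0.66 on its brighter probe and -0.11, -0.60 and -0.30 on the other, and the selenoprotein Selenow at -0.83, -0.17 and -0.57. The SD between the 12-hour arrays was 1.31 for Prdx4, 1.34 for the brighter Gclc probe and 1.49 for Selenow.

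The glucocorticoid-responsive list lay highest. Of its 16 probes, for 14 of 24 genes, 9, 13 and 16 were above fed at 12, 24 and 72 hours, where 49.2%, 49.5% and 46.6% of all probes were. Their median log2 difference was 0.39, 0.62 and 0.92. In limma 0 passed, and 3, 3 and 5 had an unadjusted p under 0.05, where 3.92%, 3.04% and 1.55% of all probes did. Fkbp5, a co-chaperone of the glucocorticoid receptor, was at 1.55, 2.03 and 2.13, with a smallest adjusted p = 0.75 in limma. Ddit4, an inhibitor of mTOR signalling, was at 0.84, 1.54 and 3.35, Cdkn1a, an inhibitor of the cell cycle, at 1.82, 1.24 and 2.27, and Pck1, which encodes the gluconeogenic phosphoenolpyruvate carboxykinase, at 1.01, 0.82 and 0.88. The probes of Ddit4 and Cdkn1a were dim in fed liver, with mean normalized signals of 6.75 and 6.59 on the log2 scale. The Ddit4 log2 ratio ran from 0.23 to 3.25 on the 24-hour arrays, and that of Cdkn1a from 0.86 to 3.09 on the 72-hour arrays. The log2 change from 12 to 24 hours was 0.48 for Fkbp5, 0.70 for Ddit4, -0.58 for Cdkn1a and -0.19 for Pck1. Limma's adjusted p was 0.996 for each, and whether these changes differed from those of Mt1 and Mt2 was not tested.

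The acute-phase and interleukin-6-responsive list had 12 probes for 9 of 27 genes, with medians of -0.08, 0.01 and 0.12. Some of these probes were dim in fed liver. Their mean normalized fed signals were 6.19 for Cp, 6.55 for Fga, 6.82 for A2m and 6.90 for a probe of Il6st. The list's other probes were at 7.61 to 10.9 on this log2 scale. Changes of genes with dim probes may have been missed, so that these medians cannot show an unchanged response. Lbp, the lipopolysaccharide-binding protein, was at 1.03, 0.66 and 1.56, and Serpina3n, a protease inhibitor, at 0.00, 0.59 and 0.85. Lcn2, an iron-siderophore carrier that is also on the iron and the glucocorticoid-responsive list, was at -0.24, 0.31 and 0.64. Socs3, a feedback inhibitor of cytokine signalling, was at 0.13, 0.29 and 0.14. The smallest adjusted p of this list against fed was 0.956. Markers of leukocytes, of which 4 of 9 genes had a probe and 4 of 5 probes were well above background on all 12 arrays, averaged a log2 ratio of 0.05 to 0.21 on fed arrays, -0.68 to 0.04 at 12 hours, -0.37 to 0.00 at 24 hours and -0.24 to -0.12 at 72 hours, and their part in these results was not tested.

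**Figure D5:**
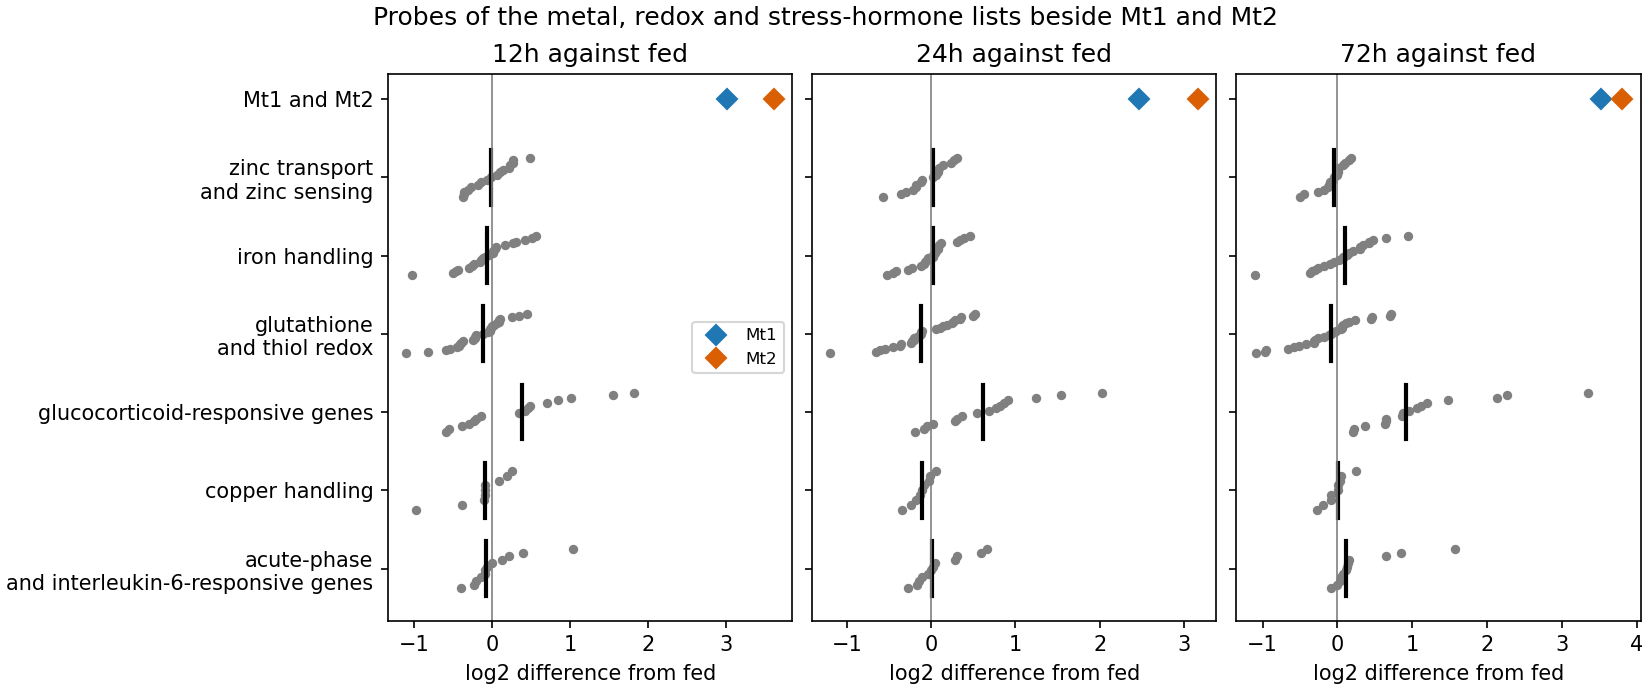
Log2 difference from fed (x axis) at 12, 24 and 72 hours for the tested probes of each list (grey points, with the median as a black bar) and for Mt1 and Mt2 (diamonds), with lists on the y axis. The highest list probe is Ddit4 at 72 hours with 3.35, below Mt1 at 3.51 and Mt2 at 3.80. The Ddit4 probe was dim in fed liver.

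The arrays held 3 further probes whose descriptions mention metallothionein but whose genes are not metallothioneins, 2 of Tesmin and 1 of Lin54. Their log2 differences from fed were between -0.13 and 0.63 with adjusted p-values of 0.956 to 1 in limma.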

How the data were processed

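Liver RNA of 4 groups was measured on 12 two-colour arrays (3 per group), and the groups were read from the titles and source names of the arrays. The deposited files of the scanner hold, per the file headers, intensities, as median pixel brightness of each spot and its background in both channels, quantified by Agilent's Feature Extraction software without normalization, and log10 ratios of reference over sample that the software had normalized. The deposited table of values gives the same log10 ratios as sample over reference (largest difference 4.98e-08). The authors' own quantile normalization and Split-Factor ANOVA gave no file used here.

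Of 21446 spots, 1075 control and 91 retired spots were left out. Signals were corrected with normexp (offset 50), quantile-normalized over 24 channels and turned into log2 ratios of sample to reference, with outlier-marked spots missing. Probes that exceeded background clearly on every array of any 1 group were tested with limma 3.58.1 in R 4.3.3 (lmFit and eBayes, 4 groups, Benjamini-Hochberg over all probes tested), and the procedure was tested on simulated data. The 2 probes and the lists were chosen with earlier results of these data known. Named besides are the 4 genes of each list with the largest mean difference of the fasted from the fed arrays, on their brightest fed probe, and the 5 named genes most correlated with each metallothionein, over at least 10 arrays and with a log2 range of at least 1. Probe names were brought to current symbols through RefSeq (11942 probes, 8931 symbols), and 277 probes have conflicting names in the 2 annotations. Promoter sequences are RefSeq's, and both genes were matched. The alternatives were loess, the scanner software's ratio, the sample channel alone, plain background subtraction, outlier-marked spots kept, no filter on dim probes, array weights, the quantification day and the replicate number as a block, only the groups compared, and arrays left out. The number of arrays and their brightness limit the precision.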

Additional observations from a re-analysis of the deposited data

How the results depend on the processing

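The increases over fed kept their direction under all alternatives. Their log2 differences moved by more than the spread between arrays as follows. For Mt1 they were 2.76 with the scanner software's ratio and 3.64 with the sample channel alone at 12 hours, 2.87 with loess, 2.73 with the scanner's ratio, 3.33 with the sample channel alone and 2.76 with array weights at 24 hours, and 3.04 with loess and 3.02 with the scanner's ratio at 72 hours. For Mt2 they were 2.52 at 12 and 2.08 at 24 hours when blocking on the quantification day, 4.03 at 24 hours with array weights, and 3.00 at 72 hours without saturated spots. The cause was not tested.

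Among the steps, the Mt1 change from 24 to 72 hours passed with array weights (0.67, limma's adjusted p = 0.0251), and that from 12 to 72 hours turned to -0.064 with the sample channel alone. The Mt2 change from 24 to 72 hours turned to -0.21 with loess, -0.25 with the scanner's ratio and -0.17 without saturated spots, and that from 12 to 72 hours to -0.44, -0.48 and -0.61, to -0.13 with array weights and to -0.044 without both dim arrays. Leaving out 1 array gave, against fed, 2.99 to 3.07, 2.21 to 2.66 and 3.47 to 3.59 for Mt1 and 3.38 to 3.86, 2.83 to 3.53 and 3.55 to 4.203 for Mt2. From 12 to 24, 24 to 72 and 12 to 72 hours it gave -0.80 to -0.36, 0.86 to 1.30 and 0.45 to 0.57 for Mt1 and -0.79 to -0.08, 0.27 to 1.04 and -0.066 to 0.59 for Mt2, which turned negative without replicate 2 of 12 hours (-0.044) or replicate 1 of 72 hours (-0.066). Where a 12-hour array was left out for Mt1, the array left was assumed to vary like the other groups.

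The list probes passing, 0 in each comparison and 0 whichever array was left out, became 15, 20 and 19 at 12, 24 and 72 hours and 2, 4 and 8 in the steps with array weights. With the day as a block they became 26 and 9 at 12 and 24 hours and 10 and 24 in the steps to 72 hours, without both dim arrays 6, 15 and 5 against fed, and with only the groups compared 3 at 72 hours. Over all probes, 1, 1 and 2 passed against fed, and 1916, 2113 and 826 with array weights, 4507, 2322 and 4 with the day as a block, and 523, 1772 and 168 without both dim arrays. In the 3 steps with array weights, 0.9%, 4.26% and 1.74% of all probes passed, beside 2%, 4% and 8% of list probes. With the day as a block, 10.6% and 18.2% of all probes passed in the steps to 72 hours, beside 10% and 24% of list probes.

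Samples with the same replicate number deviated together in some pairs and apart in others (r of -0.65 to 0.63 over 18 pairs, 6 of them above 0.1). Pairs with unlike replicate numbers were not compared. The highest r joined replicate 1 of 12 and of 24 hours, both quantified on the second day. These values therefore cannot decide whether the samples were paired. No pairing was assumed, although 3 arrays per group are too few to exclude one. The replicate block gave 3.11, 2.47 and 3.51 for Mt1 and 3.61, 3.17 and 3.80 for Mt2 against fed, and passed no step. The planned result for other metallothionein probes could not be computed, as no such probe was found.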
